A study of Mus musculus with 9 samples.

Results

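Processed pseudogenes of ribosomal protein genes were followed in the midbrain of mice with 3 Dot1l genotypes. Members were selected on their measured level: the genes annotated as pseudogenes whose symbol starts with Rpl or Rps and contains -ps and whose mean raw count over the 9 libraries was 10 or more. Of 268 such pseudogenes with a line in the count data, 158 had a count in any library and 40 met the minimum. The minimum used the level over all 9 libraries and no genotype. Rpl7l1-ps1, with a mean count of 11.4, and Rpsa-ps12, with 14.6, lay just inside it, while Rps13-ps4, with 7.89, lay just outside. Another 6 genes with such symbols are annotated as protein coding and were left out. The 40 members were named after 31 coding genes, here called parents, with 20 members named after proteins of the large ribosomal subunit and 20 after proteins of the small one.

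The libraries were made from the total RNA of midbrain tissue taken at 180 days (6 months) from mice on a C57/Bl6 background. All mice carried Pitx3-Cre/+ and Rosa-lox-stop-lox-Yfp, so the controls carried Cre as well, and the floxed Dot1l allele was absent in Dot1l(+/+), heterozygous in the Dot1l(fl/+) mice and homozygous in the Dot1l(fl/fl) mice. There were 3 libraries per genotype, each a pool of 3 mice. Dot1l encodes the enzyme that methylates the globular domain of histone H3, and Cre made from the Pitx3 locus acts in midbrain dopamine neurons, so the other cells of the dissected tissue kept their Dot1l alleles. The design text of the series describes sorted embryonic neurons and the tissue label names dopamine neurons, while the protocol label of every library gives dissection at 180 days, which was followed here. The 10 oligodendrocyte markers summed to 10676 to 12237 CPM (counts scaled to the library total after TMM normalization) and the 16 dopamine neuron markers to 631 to 892 CPM. In such tissue, fewer cells of a type and less RNA per cell cannot be told apart.

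A processed pseudogene is a copy of a spliced mRNA that was reverse-transcribed and inserted elsewhere in the genome, so it has the exons of its parent joined together without introns. Ribosomal protein genes, which are short and strongly transcribed in nearly every cell, have left more such copies in mammalian genomes than most gene families. A short read from a stretch that a young copy and its parent share cannot be given to either by its sequence, and how the deposited counts treated such reads is not given in the sources used here.

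The sequences below show both situations, each as a stretch of 75 bases from GENCODE transcripts of the mouse genome build GRCm38, written 5′ to 3′. Rps6-ps4 and Rps16-ps2 are shown because neither differs from its parent at any base. Their capitals mark the bases that meet at an exon junction of the parent, a stretch that an intron interrupts in the genome at the parent.
Rps6-ps4 (chr2:75191647-75191721, minus strand): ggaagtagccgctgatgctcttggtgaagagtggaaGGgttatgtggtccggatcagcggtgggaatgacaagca
Rps6 (coding transcript): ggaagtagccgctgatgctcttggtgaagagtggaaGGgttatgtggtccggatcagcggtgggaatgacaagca
Rps16-ps2 (chr5:129128432-129128506, minus strand): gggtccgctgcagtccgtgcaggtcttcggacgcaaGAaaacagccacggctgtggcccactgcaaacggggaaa
Rps16 (coding transcript): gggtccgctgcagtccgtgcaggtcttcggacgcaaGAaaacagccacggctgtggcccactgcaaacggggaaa
Rpl23a-ps3, Rpl9-ps7, Rpl14-ps1, Rps15a-ps7 and Rpl13a-ps1 are among the members whose ratio to the parent separated Dot1l(fl/+) from the controls, as described below. In these pairs capitals mark the bases that differ between pseudogene and parent.
Rpl23a-ps3 (chr14:34170733-34170807, plus strand): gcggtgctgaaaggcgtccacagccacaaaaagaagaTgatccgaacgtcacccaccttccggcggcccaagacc
Rpl23a (coding transcript): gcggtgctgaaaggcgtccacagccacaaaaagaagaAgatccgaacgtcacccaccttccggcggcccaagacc
Rpl9-ps7 (chr2:70459159-70459233, plus strand): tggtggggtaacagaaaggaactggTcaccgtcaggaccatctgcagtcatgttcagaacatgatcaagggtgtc
Rpl9 (coding transcript): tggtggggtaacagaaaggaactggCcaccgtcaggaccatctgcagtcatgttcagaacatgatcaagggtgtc
Rpl14-ps1 (chr7:45325480-45325554, plus strand): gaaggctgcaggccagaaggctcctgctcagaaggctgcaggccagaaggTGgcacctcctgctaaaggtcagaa
Rpl14 (coding transcript): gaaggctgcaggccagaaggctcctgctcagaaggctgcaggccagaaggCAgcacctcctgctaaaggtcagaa
Rps15a-ps7 (chr2:152185605-152185679, minus strand): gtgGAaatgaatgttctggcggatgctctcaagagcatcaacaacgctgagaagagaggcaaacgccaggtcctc
Rps15a (coding transcript): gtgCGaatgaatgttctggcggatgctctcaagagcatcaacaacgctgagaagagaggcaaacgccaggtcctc
Rpl13a-ps1 (chr19:50030593-50030667, minus strand): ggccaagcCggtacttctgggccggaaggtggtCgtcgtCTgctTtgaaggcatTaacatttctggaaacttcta
Rpl13a (coding transcript): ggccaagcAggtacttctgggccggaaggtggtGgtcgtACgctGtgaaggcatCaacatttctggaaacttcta
The stretches of Rpl23a-ps3 and Rpl9-ps7 differ from their parents at 1 base, those of Rpl14-ps1 and Rps15a-ps7 at 2 and that of Rpl13a-ps1 at 6.

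Most of the copies were close to their parents. The median identity over the aligned bases was 99.0%, 29 of the 40 reached 98% and the lowest was 90.6% in Rpl7l1-ps1. In total 9 of the 40 had no mismatch or gap, namely Rpl31-ps8, Rps13-ps2, Rps6-ps4, Rpl10a-ps1, Rps16-ps2, Rps23-ps1, Rpl36a-ps2, Rpl28-ps1 and Rpl38-ps2. In 31 members the reading frame of the parent was free of frameshifts and premature stops, 7 had a frameshift and 2 a premature stop. Each member was also read in windows of 50 bases. In the median member 59.6% of the windows occurred in the parent transcript and 36.1% occurred in no other annotated transcript, and the 9 exact copies had no such private window. Between 21.8 and 54.9% of the windows of a member spanned an exon junction of the parent. Parents were taken by symbol, but Rpl18-ps1 did not align to Rpl18 over most of its length, and its sequence values are against its closest coding transcript. Other copies carry the same stretches too, as 89.4% of the windows of Rps13-ps2 occur in Rps13-ps1, 79.9% of those of Rpl31-ps8 in Rpl31-ps9 and 76.1% of those of Rpl23a-ps3 in Gm10132.

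Copies closer to the parent had more counts relative to it. Rps16-ps2 had 32.6 times the mean count of Rps16, a small subunit protein gene, and Rps6-ps4 had 16.2 times that of Rps6, which encodes the small subunit protein phosphorylated by S6 kinase. Both parents had few counts, with a mean of 12.9 (0.52 CPM) for Rps16 and 33.7 (1.36 CPM) for Rps6. Of the 31 parents 10 were below 3 CPM, so that large ratios can rest on few parent counts. Rps13-ps2 had 10.2 times, Rpl31-ps8 5.79 times and Rps23-ps1 4.48 times the count of its parent. All 9 exact copies had a higher mean count than the parent, from 1.27 times in Rpl28-ps1 upwards. In contrast, none of the 11 members below 98% identity did, and Rpl7l1-ps1 had 0.0138 times the count of Rpl7l1. Counts were higher than the parent's in 22 of the 40 members and lower in 18 with parents taken by symbol. Across the 40 pairs, Spearman's rho of identity and the count ratio was 0.753, and of identity and the ratio of levels per kilobase 0.771. These are descriptions over pairs that share libraries, depth and in part the same parent, and the minimum count had a part in choosing them. Among 99 pairs of other -ps pseudogenes and their parents that passed the expression filter, 20 pseudogenes (20.2%) had a higher count than the parent, against 55% of the members.

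**Figure D1:**
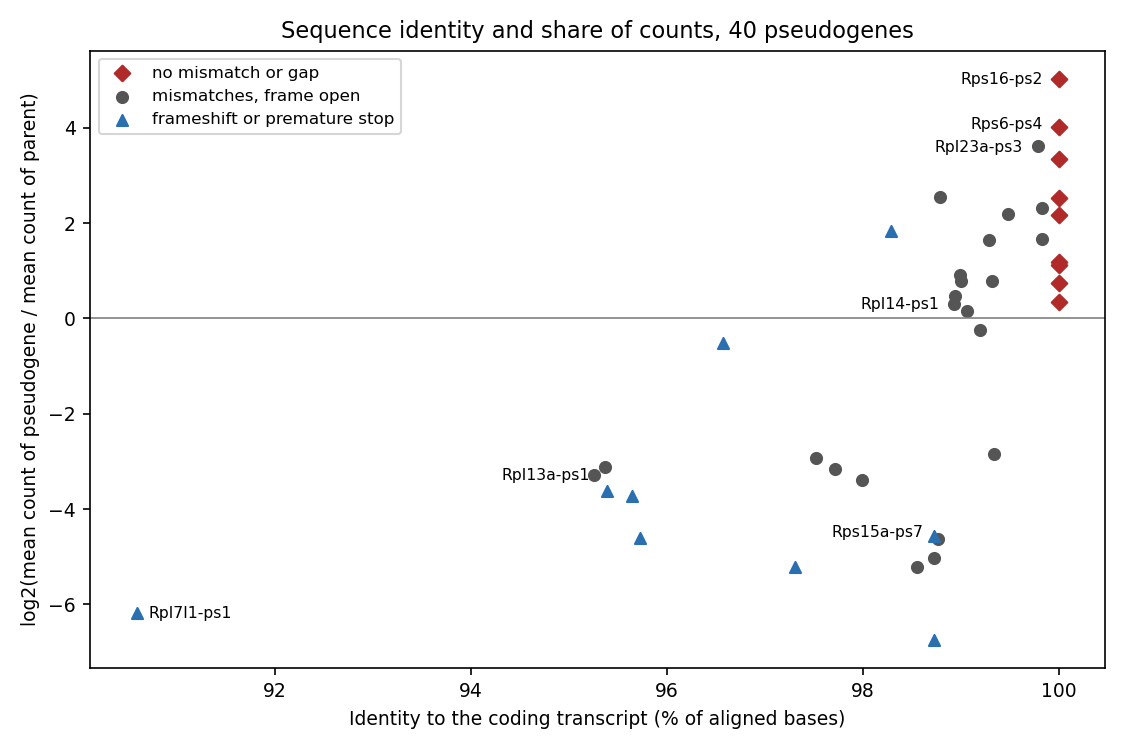
Each point is 1 of the 40 pseudogenes, with its identity to the coding transcript (% of aligned bases) on the x axis and the log2 ratio of its mean count to that of its parent on the y axis. All 9 exact copies (diamonds) lie above 0 and all 11 members below 98% identity lie below 0, and the ratio of Rpl18-ps1 is to Rpl18, to which its identity was not measured.

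The members were scattered over 16 chromosomes, with 3 on X, and 39 had 1 exon. Rpl3-ps1 lies at chrX:13202571-13203780 and Rps24-ps3 at chrX:79195047-79195448, both on the plus strand. Of the 40, 23 overlapped no annotated gene and 14 lay in an intron of a coding gene, 5 on its strand and 9 on the opposite one. Rpl14-ps1 (chr7:45324965-45325617) lies in an intron of Trpm4, which encodes a cation channel, and Rps26-ps1 in one of Wwp2, a ubiquitin ligase gene, both opposite to the host. Rpl36-ps12 lies in an intron of Sumf1, the gene of a sulfatase-modifying enzyme, on the same strand. In Dot1l(fl/+) against controls the log2 fold change was -0.18 for Trpm4, -0.02 for Wwp2 and -0.01 for Sumf1, and none of these hosts had an unadjusted p under 0.05. Rps23-ps1 overlaps an exon of Gm5148 on the other strand by 396 bases, and since the strand setting of the counting is not given, counts of these overlapping genes are uncertain.

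Levels spanned a wide range. Rpl3-ps1, a copy of the gene of a protein at the peptidyl transferase centre, had the highest level with a mean of 96.8 CPM against 30.3 CPM for Rpl3. Rpl14-ps1 followed with 72.1 CPM against 58.8 CPM for Rpl14, and Rps24-ps3 with 49.3 CPM against 28.8 CPM for Rps24. Rpsa-ps10, a copy of the laminin receptor gene Rpsa, had 38.3 CPM, Rpl31-ps8 30.7, Rps10-ps1 27.7, Rps13-ps2 25.6 and Rps26-ps1 23.99 CPM. The first 3 held 38.2% of all counts on the members. In total 15 members had a mean of 10 CPM or more and 8 a mean under 1 CPM. Within a genotype the coefficient of variation between libraries was 4.77% in Rps6-ps4 and 40.9% in Rpl39-ps, the lowest and the highest, with a median of 19.4%. Per kilobase of transcript, Rps24-ps3 had the highest level at 122.5 CPM, next Rpl14-ps1 at 110.4, and the parents Rps24 and Rpl14 had 17.9 and 58.2. The parent lengths were those of the transcripts that aligned best, 1613 bases for Rps24 and 1009 for Rpl14. Those of the pseudogenes were 402 and 653 bases, so the values of the parents depend on the transcript chosen. The 40 pseudogenes together took 46.4 to 49.4% of the counts on pseudogenes plus parents in every library, and 0.0527 to 0.0673% of all counts.

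**Figure D2:**
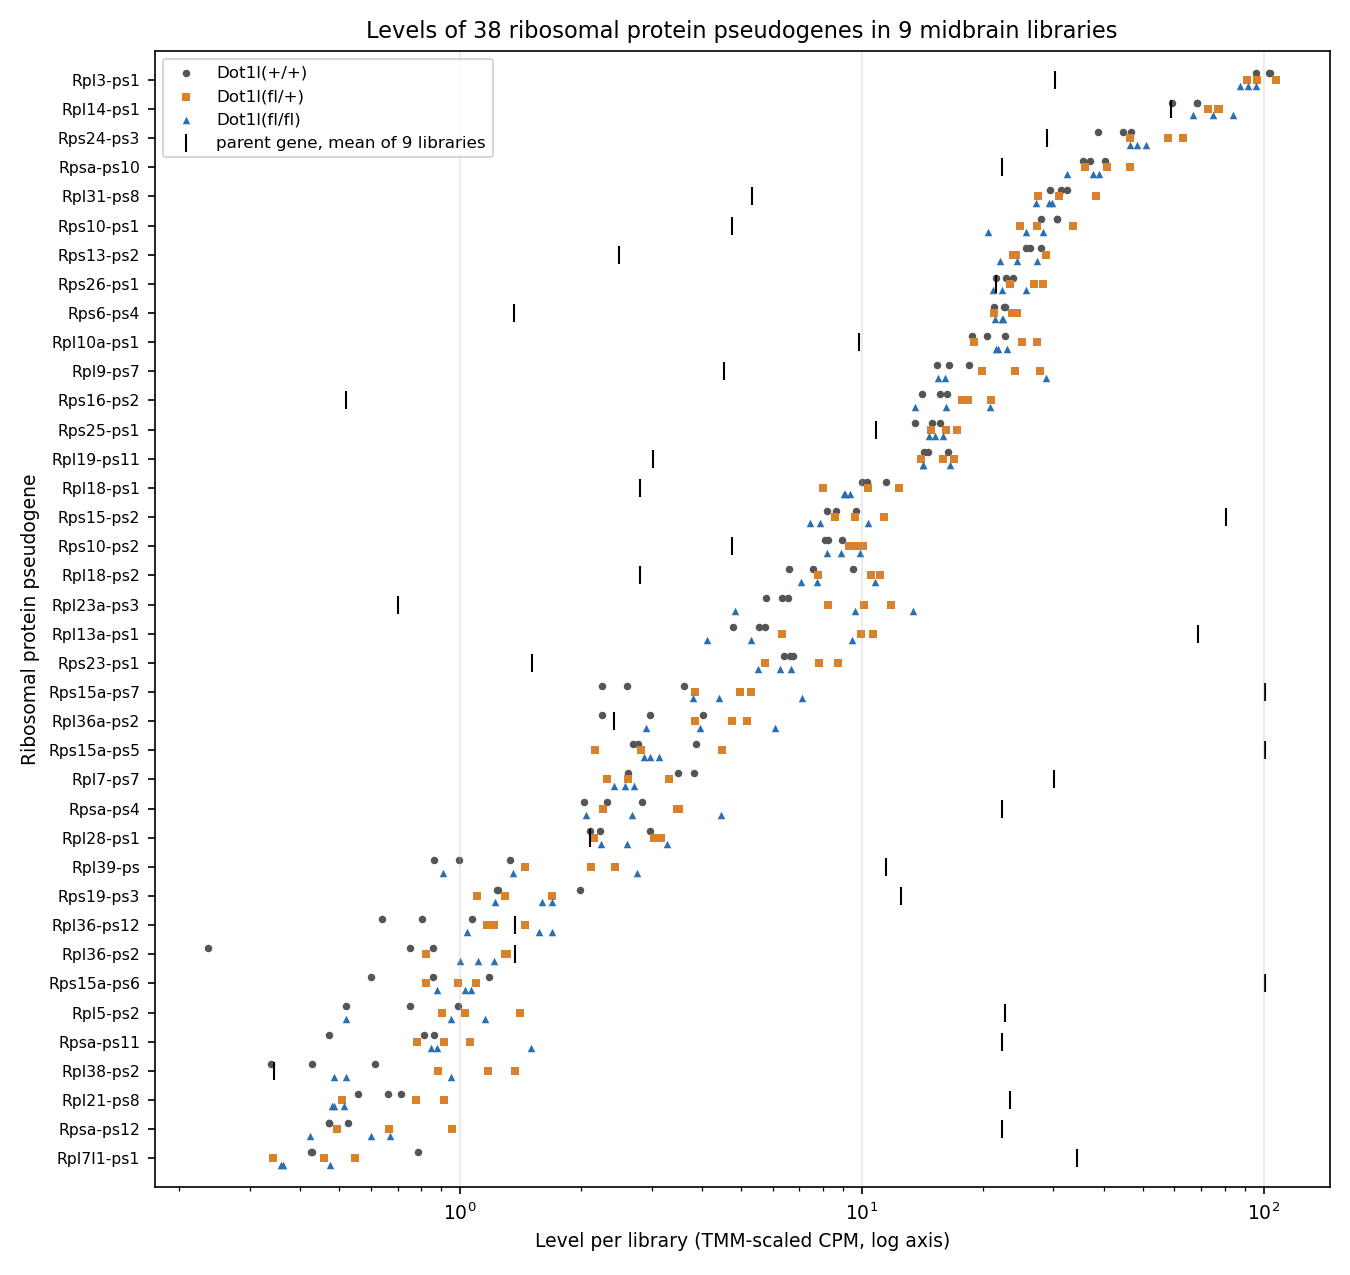
Levels of 38 of the 40 pseudogenes in each of the 9 libraries (TMM-scaled CPM, log axis), with symbols for the 3 genotypes and a black tick for the mean level of the parent. Levels run from 96.8 CPM in Rpl3-ps1 to 0.47 CPM in Rpl7l1-ps1, and the parent lies left of the copy in all 15 members of 10 CPM or more and right of it in most of the others.

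Libraries held 16422135 to 28403218 counts, and 17671 genes passed the expression filter, all 40 members among them. Dot1l itself was at 85.2, 80.2 and 85.1 CPM in the controls, 84.2, 60.6 and 75.6 CPM in the Dot1l(fl/+) mice and 82.1, 73.9 and 82.9 CPM in the Dot1l(fl/fl) mice. These groups overlapped, and a count over the whole gene in mixed tissue does not check the loss of an exon in dopamine neurons. The 3 genotype comparisons share libraries, so that they are not independent of each other. No gene passed an adjusted p of 0.05 in any of them (edgeR quasi-likelihood test with Benjamini-Hochberg adjustment over 17671 genes, 0% called), and the lowest adjusted p of a member was 0.541 in Dot1l(fl/+) against controls. What follows therefore counts unadjusted p-values under 0.05, none of which survived the adjustment, and single genes are given with log2 fold change ± SE. The p-values measure the spread between pools.

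Does loss of 1 Dot1l allele go with other levels of these copies? In Dot1l(fl/+) against Dot1l(+/+), 13 of the 40 pseudogenes were higher at an unadjusted p under 0.05 and none was lower, where 4.3% of all genes tested were higher and 4.09% lower, 8.39% in all. The 13 were 9 of the 20 large subunit and 4 of the 20 small subunit members, and all but Rpl14-ps1 and Rps26-ps1 had differences of at least 0.31 on the log2 scale. The median log2 fold change of the 40 was 0.20, with 31 positive and 9 negative, against 0.00 over all genes (17671). In 10 members every Dot1l(fl/+) library was above every control library, against 6.84% of all genes, and in none below (6.47% of all genes). DESeq2 run on these genotypes alone called 46 genes at an adjusted p of 0.05, 2 of them members, Rpl9-ps7 and Rpl23a-ps3, while DESeq2 on all 9 libraries called 7 genes and no member.

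Rpl38-ps2, an exact copy of the gene of a large subunit protein known for its part in the patterning of the skeleton, had the lowest p. It had 13, 10 and 9 counts in the controls, 30, 25 and 36 in the Dot1l(fl/+) mice and 13, 24 and 8 in the Dot1l(fl/fl) mice. The Dot1l(fl/+) libraries were all above the controls, although at few counts, with 1.32 ± 0.35 (SE) as the log2 fold change from controls (adjusted p = 0.541). Its parent Rpl38 was at 0.34 CPM and had 0.68 ± 0.59. Rps24-ps3, a copy of a small subunit gene, was at 38.6, 44.7 and 46.7 CPM in the controls and 46.6, 63.1 and 57.8 CPM in Dot1l(fl/+). Dot1l(fl/+) replicate 1 lay within the control range, and the log2 fold change was 0.36 ± 0.10 beside 0.22 ± 0.09 for Rps24.

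Rps15a-ps7, a copy with a frameshift, was at 2.60, 3.61 and 2.25 CPM in the controls and 3.84, 4.98 and 5.30 CPM in Dot1l(fl/+). The groups did not overlap, with a log2 fold change of 0.74 ± 0.24 beside -0.08 ± 0.05 for Rps15a, a small subunit gene at 101 CPM. Rpl13a-ps1, which with 95.3% identity had few windows (4.44%) in common with its parent, was at 4.78, 5.54 and 5.75 CPM in the controls and 6.35, 10.7 and 9.96 CPM in Dot1l(fl/+). Its groups did not overlap either, with a log2 fold change of 0.75 ± 0.25 beside 0.16 ± 0.08 for Rpl13a. Rpl23a-ps3 was at 5.77, 6.57 and 6.35 CPM in the controls and 8.27, 11.8 and 10.1 CPM in Dot1l(fl/+), a log2 fold change of 0.69 ± 0.25. Its parent Rpl23a, which encodes a protein near the exit tunnel of the large subunit, was at 0.70 CPM with 0.08 ± 0.32. Rpl9-ps7 was at 16.5, 15.4 and 18.4 CPM in the controls and 19.98, 27.8 and 24.1 CPM in Dot1l(fl/+), a log2 fold change of 0.51 ± 0.20, while Rpl9, a large subunit gene, differed by -0.15 ± 0.13. In each of these 4 members all Dot1l(fl/+) libraries were above all controls, and each had an adjusted p of 0.541.

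Among the abundant members, Rpl14-ps1 was at 59.2, 68.4 and 68.5 CPM in the controls and 72.9, 77.5 and 77.2 CPM in Dot1l(fl/+), groups that did not overlap, with a log2 fold change of 0.21 ± 0.08 beside -0.04 ± 0.07 for Rpl14. Rpl3-ps1 had -0.03 ± 0.06, Rpl31-ps8 0.06 ± 0.10, Rps10-ps1 -0.06 ± 0.12, Rps13-ps2 -0.06 ± 0.09 and Rpsa-ps10 0.13 ± 0.10. The median log2 fold change was 0.13 in the 15 members of 10 CPM or more, of which 5 had an unadjusted p under 0.05, and 0.31 in the other 25, of which 8 had, and this difference was not tested. The 9 exact copies had a median of 0.20, with 3 at a p under 0.05, and the members with mismatches or gaps a median of 0.20. The rest of the 13 were Rpl39-ps at 0.92 ± 0.36, Rpl36-ps2 at 0.86 ± 0.36, Rpl36-ps12 at 0.61 ± 0.28, Rpl36a-ps2 at 0.58 ± 0.25, Rps16-ps2 at 0.31 ± 0.13 and Rps26-ps1 at 0.20 ± 0.09. Rps26-ps1 lay just inside the threshold (edgeR unadjusted p = 0.0494), and its groups overlapped.

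**Figure D3:**
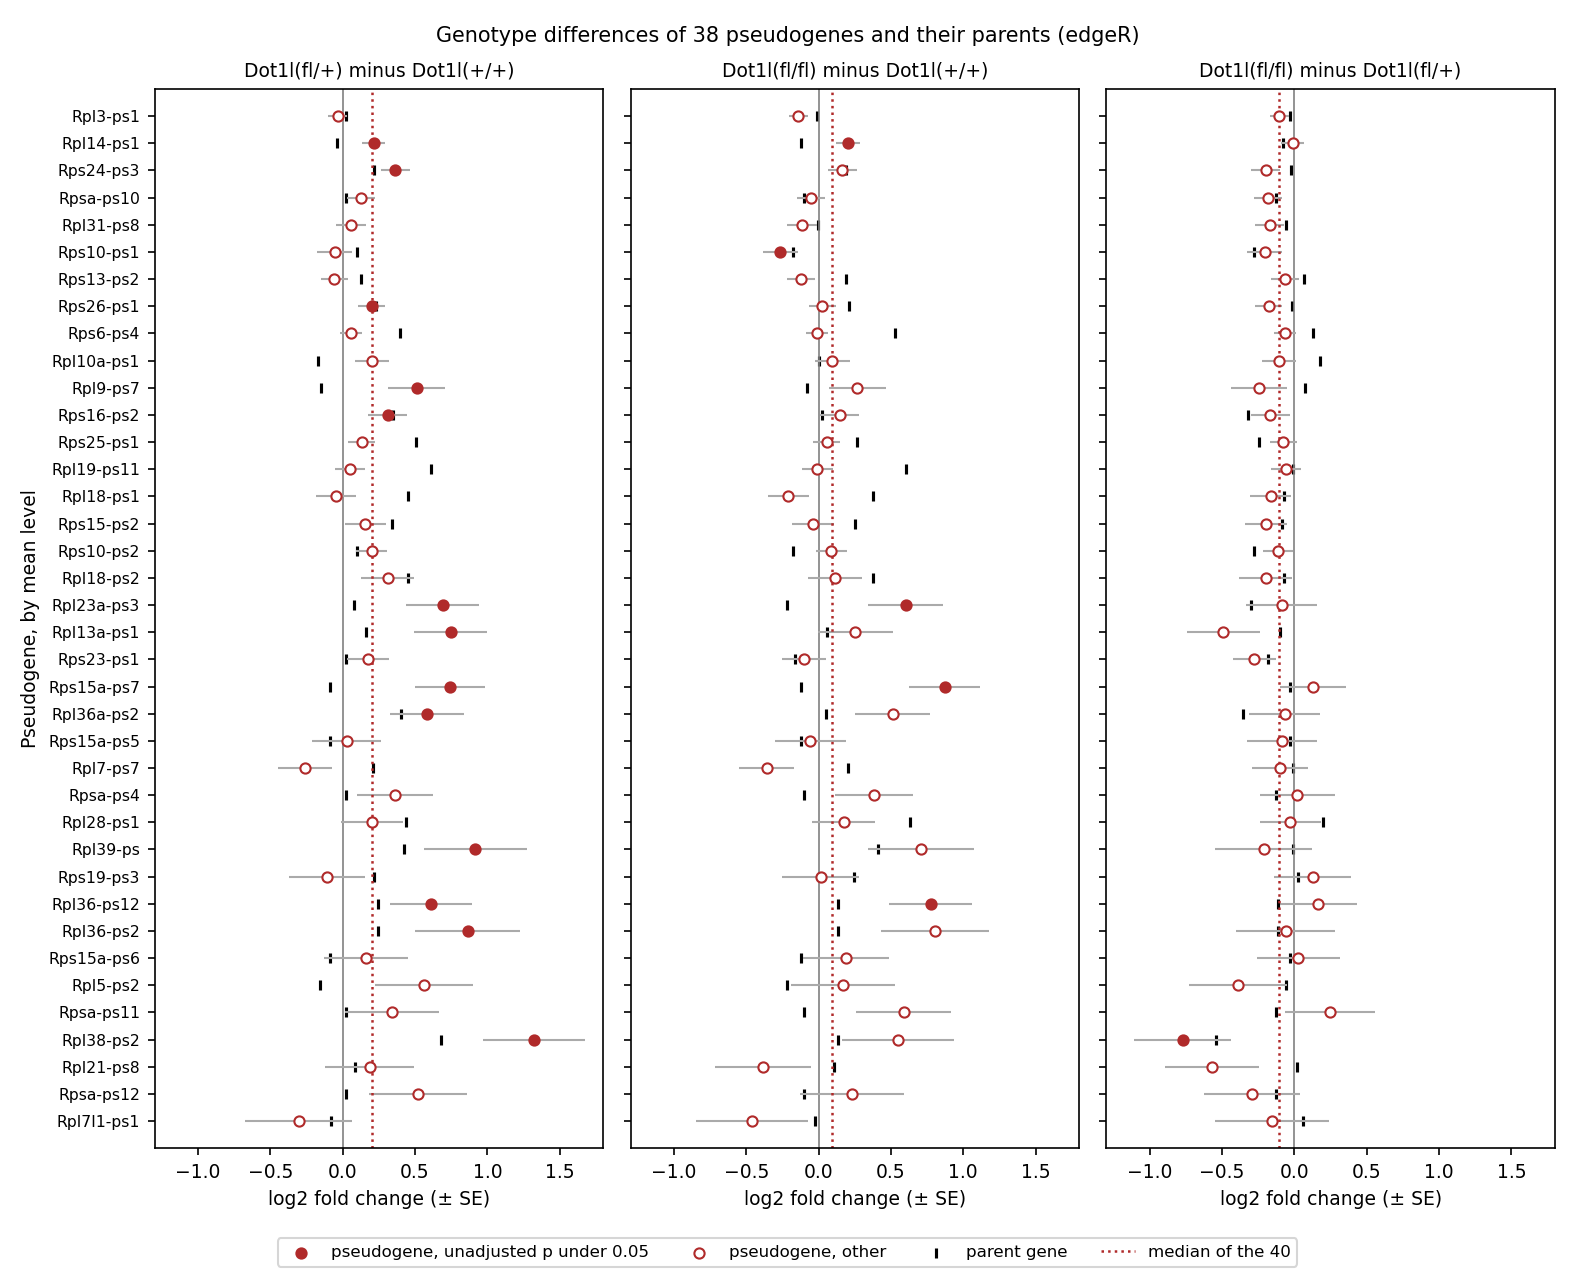
log2 fold changes (± SE, edgeR) of 38 of the 40 pseudogenes in the 3 genotype comparisons, ordered by mean level, with filled points at an unadjusted p under 0.05, a black tick for the parent and a dotted line at the median of the 40. Filled points number 13 in Dot1l(fl/+) against controls, all right of 0, then 4 right and 1 left of 0 in Dot1l(fl/fl) against controls, and 1 left of 0 in the last panel.

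Other genes of the ribosome and other short genes were counted in the same way in Dot1l(fl/+) against controls. Of the 31 parents 7 were higher at an unadjusted p under 0.05 and none was lower (median log2 fold change 0.21). The list of 84 coding genes of the cytosolic ribosome includes these parents, so the 2 counts are not separate. Of the 84 genes 79 were tested, and 18 were higher and none lower, with a median of 0.14. Among 137 other -ps pseudogenes 17 were higher and 2 lower (median 0.07), and among the 3523 tested genes of up to 1977 bases in transcript length 372 were higher and 46 lower (median 0.08). All 40 members are among these, with a median length of 471.5 bases against 3972.5 for all genes. With a per-library offset fitted to GC and length, 7 members in place of 13 were higher and the median log2 fold change was 0.05. Without Dot1l(+/+) replicate 1 the count was 4, and without Dot1l(fl/+) replicate 2 it was 5. In contrast, of 40 genes of ribosome assembly and its regulators none passed p under 0.05 in either direction, in all 3 comparisons, and their median log2 fold changes were 0.00, 0.02 and 0.00.

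In Dot1l(fl/fl) against Dot1l(+/+), 4 members were higher and 1 lower at an unadjusted p under 0.05, where 2.21% of all genes were higher and 1.72% lower (3.93% in all), and the median log2 fold change was 0.09. The lowest adjusted p of a member was 0.999. In 2 members every Dot1l(fl/fl) library was above the controls (5.03% of all genes) and in 2 every one was below (5.25%). Rps15a-ps7 was at 3.799, 7.12 and 4.43 CPM in Dot1l(fl/fl), all above the controls, with a log2 fold change of 0.87 ± 0.24. Rpl36-ps12, a copy of a large subunit gene, was at 0.80, 1.07 and 0.64 CPM in the controls and 1.04, 1.70 and 1.58 CPM in Dot1l(fl/fl), groups that overlapped, and had 0.77 ± 0.28. Dot1l(fl/fl) replicate 2 was the highest of its group in both.

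Rpl14-ps1 was at 74.7, 83.9 and 66.8 CPM in Dot1l(fl/fl), with replicate 3 inside the control range, and a log2 fold change of 0.20 ± 0.08. Rpl23a-ps3 was at 9.64, 13.4 and 4.85 CPM, on both sides of the controls, and 0.60 ± 0.26. The member that was lower, Rps10-ps1, was at 30.6, 27.9 and 30.7 CPM in the controls and 20.6, 25.6 and 28.3 CPM in Dot1l(fl/fl), and its log2 fold change was -0.26 ± 0.12. The groups overlapped, and Rps10-ps1 lay just inside the threshold (edgeR unadjusted p = 0.0499). Its parent Rps10, a small subunit gene, had -0.18 ± 0.13. Rpl3-ps1 lay just outside the threshold, with -0.14 ± 0.07. Of the 31 parents 5 were higher and 1 lower in this comparison, and of the 79 coding ribosomal protein genes tested 11 were higher and 2 lower. Without Dot1l(fl/fl) replicate 2 only 1 member was higher, without replicate 3 of the same group there were 7, and without Dot1l(+/+) replicate 1 or 3 there were 2. With the length and GC offset 2 were higher and 3 lower, and with the replicate number as a block 8 were higher and 1 lower. The lower count was 0 without either of those control replicates or without Dot1l(fl/fl) replicate 1 or 2.

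Set directly against each other, Dot1l(fl/fl) and Dot1l(fl/+) differed in 1 member at an unadjusted p under 0.05, none higher and 1 lower, where 3.6% of all genes were higher and 2.87% lower (6.48% in all). This was Rpl38-ps2, with a log2 fold change of -0.77 ± 0.33, and the groups overlapped. The next lowest p-values were those of Rps24-ps3 at -0.20 ± 0.10, Rpl13a-ps1 at -0.49 ± 0.25, Rps26-ps1 at -0.18 ± 0.09 and Rps23-ps1 at -0.28 ± 0.15. The median of the 40 was -0.11, with 7 positive and 33 negative, and in no member did the libraries of these genotypes separate (5.98% of all genes were higher in every library and 5.14% lower). Of the 31 parents 1 was lower, Rps10 at -0.28 ± 0.13, and of the 79 coding genes 6 were lower, with none higher in either list. With the replicate block 4 members were lower. This comparison turned on single libraries. Without Dot1l(fl/+) replicate 1, 11 members were lower, without Dot1l(fl/fl) replicate 2, 7 were, and without Dot1l(fl/+) replicate 3 none was.

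The sums show which libraries stood high. All pseudogenes together were at 538, 542 and 561 CPM in the controls, 540, 676 and 612 CPM in the Dot1l(fl/+) mice and 533, 600 and 540 CPM in the Dot1l(fl/fl) mice, which is 547 ± 12.5, 609 ± 68.0 and 558 ± 36.6 CPM (SD, n = 3). Dot1l(fl/+) replicates 2 and 3 and Dot1l(fl/fl) replicate 2 were above all controls, while Dot1l(fl/+) replicate 1 was within their range. The parents had the same libraries on top, with 606, 616 and 603 CPM in the controls, 611, 693 and 662 CPM in the Dot1l(fl/+) mice and 616, 675 and 609 CPM in the Dot1l(fl/fl) mice. Over the 40 members the median deviation from the mean of all libraries was 0.29 in Dot1l(fl/+) replicate 2, 0.11 in replicate 3 and 0.10 in Dot1l(fl/fl) replicate 2 on the log2 scale, and between -0.13 and -0.07 in the other 6 libraries.

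Other RNA also differed between the genotypes. Of 10 rRNA-like genes 5 were tested, of which 4 were higher in Dot1l(fl/+) against controls at an unadjusted p under 0.05 and none in Dot1l(fl/fl). The 10 summed to 418 to 486 CPM in the controls, 739 to 1199 CPM in the Dot1l(fl/+) mice and 346 to 621 CPM in the Dot1l(fl/fl) mice, with 3 of the 10 at 0 in all controls. Their highest library was Dot1l(fl/+) replicate 1, which was not high in the pseudogenes. The 6 choroid plexus markers summed to 66.6 to 155 CPM in the controls, 115, 180 and 585 CPM in the Dot1l(fl/+) mice and 40.3 to 46.2 CPM in the Dot1l(fl/fl) mice, and none was at 0 in a whole group. Dot1l(fl/+) replicate 1 was within the control range and replicate 3 was by far the highest. Of these 6, 4 were higher in Dot1l(fl/+) and 3 lower in Dot1l(fl/fl) against controls at an unadjusted p under 0.05. Of the 10 oligodendrocyte markers 3 were higher in Dot1l(fl/+) against controls at p under 0.05 and none in Dot1l(fl/fl). Of the 10 microglia markers 1 was higher in the Dot1l(fl/+) mice and 3 in the Dot1l(fl/fl) mice against controls. They summed to 377 to 394 CPM in the controls, 377, 454 and 429 CPM in the Dot1l(fl/+) mice and 411, 447 and 417 CPM in the Dot1l(fl/fl) mice, so that Dot1l(fl/+) replicates 2 and 3 and all Dot1l(fl/fl) libraries were above the controls. Of the 16 dopamine neuron markers 6 were lower at an unadjusted p under 0.05 in the Dot1l(fl/+) mice and 12 in the Dot1l(fl/fl) mice against controls, and the 5 blood markers summed to 99.4 to 280 CPM in the controls, 108 to 172 CPM in the Dot1l(fl/+) mice and 151 to 217 CPM in the Dot1l(fl/fl) mice. The part of these RNAs in the values of the pseudogenes was not tested.

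**Figure D4:**
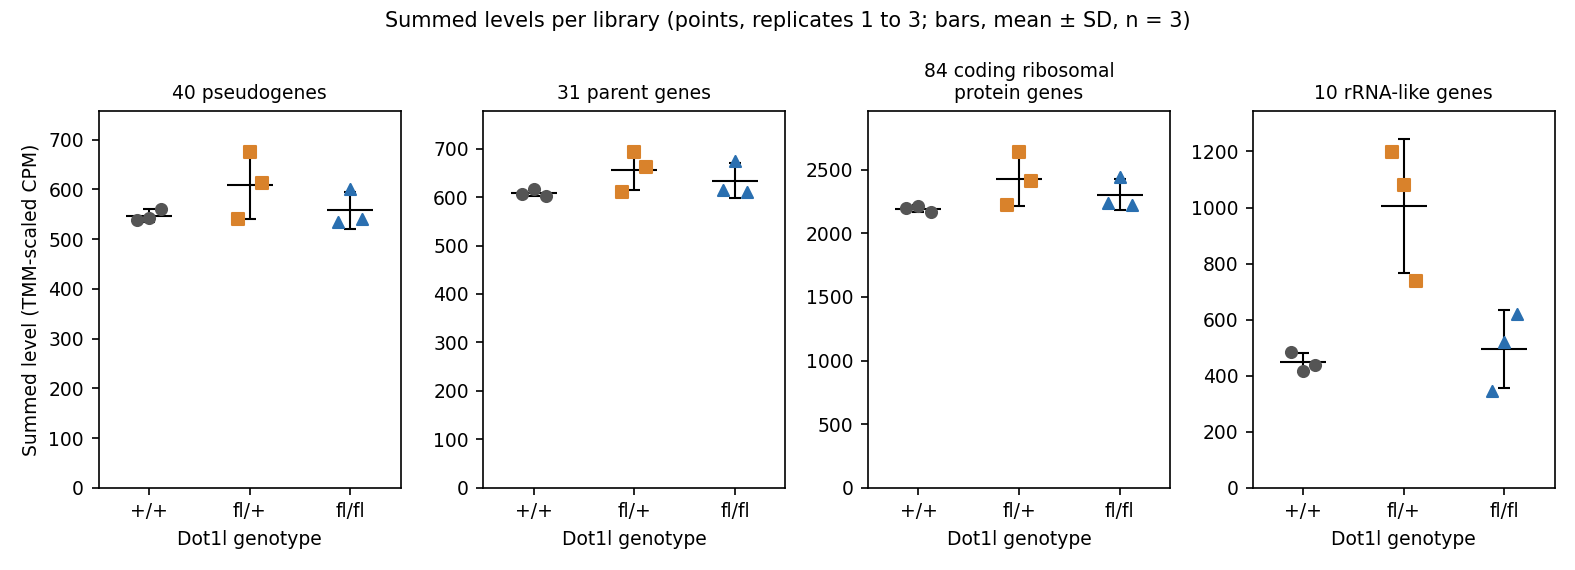
Summed levels (TMM-scaled CPM) of the 40 pseudogenes, 31 parents, 84 coding ribosomal protein genes and 10 rRNA-like genes in each library (points, replicates 1 to 3 from left to right) with mean ± SD (n = 3) per genotype. Dot1l(fl/+) replicate 2 is the highest library of the first 3 panels, at 676 CPM in the pseudogenes, and Dot1l(fl/+) replicate 1 is the highest in the rRNA-like genes at 1199 CPM.

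Did the copies differ from their parents between genotypes? The log2 ratio of the summed pseudogenes to the summed parents was -0.17, -0.18 and -0.10 in the controls, -0.18, -0.04 and -0.11 in the Dot1l(fl/+) mice and -0.21, -0.17 and -0.18 in the Dot1l(fl/fl) mice. These groups overlapped. The difference from controls was 0.04 in the Dot1l(fl/+) mice (p = 0.6, two-sided exact permutation test of 3 against 3 libraries, whose smallest p is 0.1) and -0.03 in the Dot1l(fl/fl) mice (exact permutation p = 0.5), and it was -0.07 between Dot1l(fl/fl) and Dot1l(fl/+) (exact permutation p = 0.3). The permutation did not pair libraries by replicate number. For single pairs, 6 of the 40 ratios were higher in every Dot1l(fl/+) library than in every control, and 4 were lower. Among the 99 other -ps pairs 11.1% were higher and 3.03% lower in this way. The difference was positive in 23 of the 40 pairs and in 61 of the 99 other pairs.

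Rpl9-ps7 to Rpl9 was at 1.77, 1.70 and 1.92 on the log2 scale in the controls and 2.12, 2.77 and 2.48 in Dot1l(fl/+), a difference of 0.66. Rpl23a-ps3 to Rpl23a was at 3.29, 3.05 and 2.91 in the controls and 3.77, 3.46 and 3.92 in Dot1l(fl/+), a difference of 0.63 that rests on 12 to 30 counts of Rpl23a in a library of these groups. Rps15a-ps7 to Rps15a differed by 0.83, Rpl5-ps2 to Rpl5 by 0.74, Rpl13a-ps1 to Rpl13a by 0.56 and Rpl14-ps1 to Rpl14 by 0.26. Rpl5-ps2 had few counts, with a mean log2 ratio of -5.04 in the controls to a parent of 550 mean counts. On the other side, Rpl19-ps11 was at 2.51, 2.89 and 2.81 against Rpl19 in the controls and 2.16, 2.41 and 1.98 in Dot1l(fl/+), a difference of -0.55, while the pseudogene alone differed by 0.05 ± 0.11 and Rpl19 by 0.61 ± 0.22. Rpl18-ps1 to Rpl18 differed by -0.48 and Rps25-ps1 to Rps25 by -0.39. All of these reach the smallest p that 3 against 3 libraries allow, 0.1 in the exact permutation test, so no single pair could pass 0.05.

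In Dot1l(fl/fl) 2 ratios were higher than in every control, those of Rps15a-ps7 with a difference of 0.95 and of Rpl10a-ps1 with 0.10, and 4 were lower, with those of Rpl18-ps1 (-0.57), Rpl21-ps8 (-0.47) and Rpl3-ps1 (-0.13) among them. Of the 99 other -ps pairs 8.08% were higher and 5.05% lower. Against Dot1l(fl/+) none of the 40 ratios was higher in every Dot1l(fl/fl) library and 1 was lower, that of Rpl21-ps8, while 5.05% of the other pairs were higher and 7.07% lower. The ratio of Rpl21-ps8 rests on few counts, with a mean log2 ratio of -5.02 in Dot1l(fl/+) to a parent of 568 mean counts. The share of the pseudogenes in the counts on pseudogenes and parents was 47.4 ± 0.76% in the controls, 48.1 ± 1.2% in the Dot1l(fl/+) mice and 46.8 ± 0.34% in the Dot1l(fl/fl) mice (SD, n = 3), and these ranges overlapped.

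**Figure D5:**
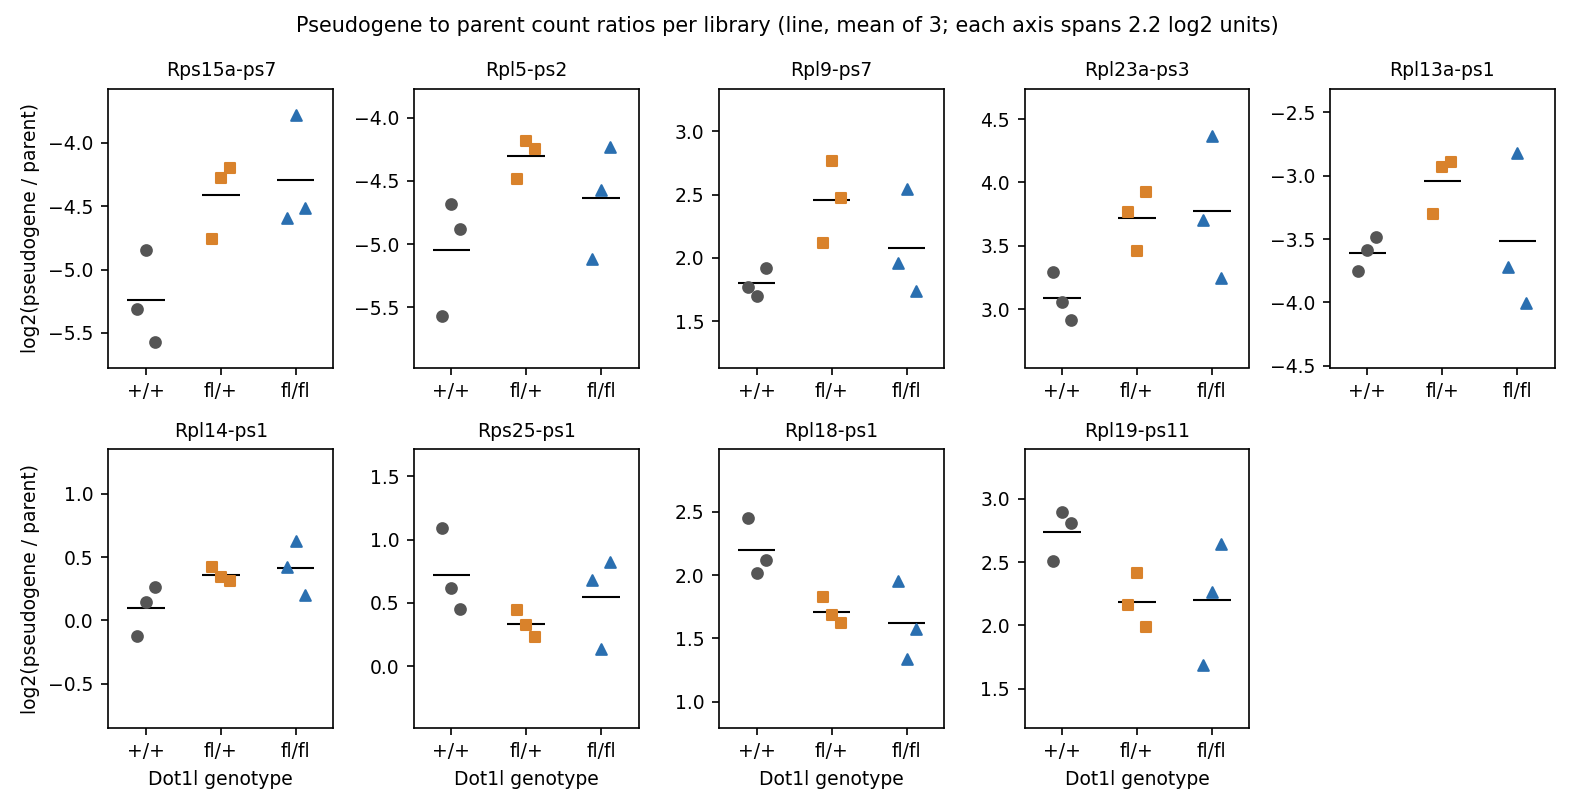
log2 ratio of pseudogene to parent counts (0.5 added to both) per library for 9 of the 10 pairs in which Dot1l(fl/+) and control libraries did not overlap, with a line at the mean of 3 and axes that each span 2.2 log2 units. The first 6 panels have higher and the last 3 lower ratios in Dot1l(fl/+), and the Dot1l(fl/fl) libraries overlap the controls in all but Rps15a-ps7 and Rpl18-ps1.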

How the data were processed

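Total RNA of 9 pools of dissected midbrain was made into directional libraries (NEBNext Ultra Directional) and sequenced on an Illumina NextSeq. Per the submitters' processing notes the authors used bcl2fastq 2.17, Trimmomatic 0.30 and the mouse build GRCm38.p4. The deposited values are raw read counts for each Ensembl gene, which the authors had not normalized. The aligner, counting tool, annotation release, strand setting and treatment of reads with several matches are not given in the sources used here. The authors' 3 deposited comparisons (DESeq2 1.10.1, with mean normalized counts, log2 fold changes, SE, Wald statistics and p-values) were not used. Depth was 16422135 to 28403218 counts per library.

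Of 47729 identifiers, 47310 matched a gene in the GENCODE M21 annotation of GRCm38, which gave symbols, gene types, positions and transcripts. The parent of a pseudogene is the coding gene named before -ps. Counts were tested with R 4.3.3 and edgeR 4.0.16 (TMM, filterByExpr, quasi-likelihood test, 1 fit of all 9 libraries, genotype only, Benjamini-Hochberg). TMM factors were 0.988 to 1.01 and the biological coefficient of variation was 8.81%. CPM are counts scaled to the TMM-adjusted library total, and per kilobase uses transcript length. For a parent this is the length of the transcript that aligned best. Ratios to parents used 0.5 added counts and an exact permutation test. Pseudogenes were aligned locally with Biopython 1.88 to the parent transcript (match 2, mismatch -3, gap opening -6, extension -1). The fit was also run on simulated counts with known changes, drawn independently for each gene and library. That run does not cover reads shared between genes or genes that vary together by library. Alternatives were DESeq2 1.42.0 on all 9 libraries or on 2 genotypes, DESeq2's size factors, a fit of 2 genotypes, no filter, 10 counts in every library, a replicate block, a length and GC offset alone and with the block, each library left out, minimum counts of 50 or none, 2 added counts, and all coding ribosomal protein genes in place of the parent.

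The members, lists and tests were chosen with earlier results of these data known. Named were Dot1l, the 8 members with the highest CPM, the 5 with the lowest p in each comparison, those of highest and lowest identity or private windows, those just inside and just outside the minimum, Rpl9-ps7 and Rpl23a-ps3, with their parents and hosts. Other genes were named after their values were seen. Single values of 2 members and of some other genes are not reported here. The study's methods describe the pools as paired by litter across the genotypes, which no label ties to the replicate numbers, so the block was an alternative.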

Additional observations from a re-analysis of the deposited data

How the results depend on the processing

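The pseudogene counts depended on single libraries and on the joint length and GC offset. The median log2 fold change of the members in each comparison and the 16 fold changes of members named for their p or for earlier results kept their sign in every alternative run, but in Dot1l(fl/fl) against controls 4 members higher and 1 lower became 2 higher and 3 lower with the offset. Sizes did change. In that comparison the log2 fold change ranged from 0.25 to 0.89 in Rpl23a-ps3 and from -0.36 to -0.14 in Rps10-ps1. For Dot1l(fl/+) against controls, genes past the adjusted threshold went from 0 to 251 without a filter (6 of them members), 7 with DESeq2 on all libraries, 46 with DESeq2 and 1 with edgeR on these genotypes alone, and 0 to 5 with a library left out. Genes at an unadjusted p under 0.05 went from 1483 to 942 with DESeq2 on these genotypes and to 976 to 2235 with a library left out. Members higher went from 13 to 7 with the length and GC offset, 8 with offset and block, and 4 to 15 with a library left out, and the median from 0.20 to 0.05 (0.046) with the offset and 0.05 (0.048) with offset and block. For Dot1l(fl/fl) against controls, genes past the adjusted threshold went from 0 to 118 without a filter (2 of them members), 4 with DESeq2 on all libraries, 9 with DESeq2 and 4 with edgeR on these genotypes, and 3 with the block, alone or with the offset. Genes at an unadjusted p under 0.05 went from 694 to 1210 without a filter, 450 with DESeq2 on all libraries, and 382 to 942 with a library left out. Members higher went from 4 to 9 without a filter, 8 with the block, 2 with the offset and 1 to 7 with a library left out, and members lower from 1 to 2 (DESeq2's size factors, no filter, DESeq2 or edgeR on these genotypes, offset with block), 3 with the offset and 0 to 2 with a library left out. For Dot1l(fl/fl) against Dot1l(fl/+), genes past the adjusted threshold went from 0 to 164 without a filter, 12 with either DESeq2 fit, 3 with the block, 4 with offset and block and 0 to 12 with a library left out. Genes at an unadjusted p under 0.05 went from 1145 to 1795 without a filter, 617 with DESeq2 on these genotypes and 876 to 1752 with a library left out. Members lower went from 1 to 7 without a filter, 0 with 10 counts in every library, DESeq2 on these genotypes or a minimum mean count of 50, 4 with the block, 3 with offset and block, and 0 to 11 with a library left out. The cause was not tested. The study's methods describe pools made from paired littermates of the 3 genotypes, but no label ties the replicate numbers to these pairs. Same-numbered libraries of different genotypes correlated at 0.02 to 0.32 (9 values) in their deviations from the group means and other numbers at -0.27 to 0.11, with 15 of 18 best correlated with their own number, a hint of pairing from the data. With the replicate block members higher against controls were 12 in the Dot1l(fl/+) mice and 8 in the Dot1l(fl/fl) mice, and members lower between these genotypes were 4. The difference in the ratio of summed pseudogenes to summed parents kept its sign with any library left out but not its size, with a range of 0.0070 (without Dot1l(fl/+) replicate 2) to 0.078 for Dot1l(fl/+) and of -0.047 to -0.0060 (without Dot1l(+/+) replicate 3) for Dot1l(fl/fl) against controls, and of -0.109 to -0.038 (without Dot1l(fl/+) replicate 2) between them. Of 238 alternative values of named genes 192 stayed on their side of the 0.05 threshold, 33 lost and 13 gained it. At a mean of 11.4 to 50 counts, few reads carry 11 of the 40 members, and p-values over 3 pools cannot fall under 0.1 in a permutation.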
